A study of Mus musculus with 6 samples.

Results

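The genes described here encode the proteins of the mitochondrial ribosome. Members were the table's mouse genes whose symbol begins with Mrpl or Mrps followed by a digit, after 5 processed pseudogenes had been set aside. They number 78 of the 55335 genes listed, 49 of the large and 29 of the small subunit by symbol. RNA came from wild-type RAW264.7 cells, an established mouse macrophage line. Every library was made from cells given 200 ng/ml lipopolysaccharide (LPS, a bacterial cell wall component sensed by TLR4) for 8 h. LPS was the only treatment in 3 libraries. In the other 3, low-intensity ultrasound was added for 10 min within those 8 h, with 50 mW/cm² at 1 MHz, a duty cycle of 20%, a pulse repetition frequency of 1 kHz and 200 µs pulses. The comparison asks how ultrasound changes the transcriptome of LPS-stimulated macrophages. No cells without LPS were analysed here, and the labels do not say if each library is its own culture. The p-values therefore reflect library-to-library spread alone, and that spread may be technical. In such bulk RNA, fewer cells of a type and less RNA per cell cannot be told apart.

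The mitochondrial ribosome translates the 13 mRNAs of the mitochondrial genome, all of which encode subunits of the oxidative phosphorylation complexes. Its rRNAs are transcribed inside the organelle, while its proteins are made from nuclear genes on cytosolic ribosomes and imported. About a set of proteins inherited from the bacterial ancestor a shell of mitochondria-specific proteins has grown. In macrophages, oxidative phosphorylation is known to be reduced after LPS.

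Values are FPKM, fragment counts divided by transcript length and library size. This scaling does not correct for shifts in RNA composition or for how reads were assigned. Comparisons between libraries and between genes are therefore approximate. Fold changes are differences of log2(FPKM + 1), ultrasound minus LPS, ± the standard error, a scale that understates the change of low genes. The FPKM of a library summed to 278871 to 292200, and 11128 to 11299 genes reached 1 FPKM. The cells carried their labelled identity: 10 of 10 macrophage markers averaged 1 FPKM or more, as did 1 of 8 skeletal muscle and 0 of 6 fibroblast markers. The summed macrophage markers ran from 2418 to 2711 FPKM with LPS and from 2511 to 2818 with ultrasound. The summed muscle markers ran from 29.3 to 32.2 and from 25.8 to 29.5 FPKM, nearly all of it from Tnni2, with Myh1 and Myh4 at 0. LPS library 2 stood apart, at -28.8 on principal component 1 (41.9% of the variance of the tested genes), where the other 5 libraries lay between -2.03 and 17.7.

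Promoter sequences were compared next. RefSeq promoter windows (GRCm38.p6, from 250 bases before to 50 after the transcription start) were found for 69 of the 78 members. They were searched on both strands for a core match to each of 3 activators known for nuclear genes of mitochondrial proteins: CGCATGCG for NRF1, CCGGAAG for ETS factors such as GABP, and GCCATCTT for YY1. At least 1 match lay in the windows of 38 of the 69 members (55.1%), compared with 31.0% of the 7946 tested genes that have a window. Among all 27025 genes whose RefSeq windows were searched, in the deposited data or not, the share was 14.1%. The other 31 members had no match. Among the companion nuclear genes of mitochondrial translation described further on, 25 of 49 had a match (51.0%), close to the members' share. The ETS core was found in 26 members (37.7%, against 22.9% of the tested genes), the YY1 core in 12 (17.4%, against 6.2%) and the NRF1 core in 7 (10.1%, against 4.9%). The median GC content of the windows was 58.0% for members and 61.0% for tested genes. Of the 51 matches, 25 began within 100 bases before the start. The ETS and YY1 cores can share letters (CTT), and no pair of the 51 matches did. A match is a string of letters and not a measured binding site.

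The windows of 30 bases below show such matches, in capitals, in members described further on, each written 5′ to 3′ on the strand of the gene, as RefSeq gives it for GRCm38.p6. A core found on the other strand appears as its reverse complement, CTTCCGG for ETS and AAGATGGC for YY1, and the NRF1 core reads the same on both strands. The first Mrpl52 line and the Mrpl49, Mrps21, Mrps12 and Mrps23 lines hold matches that begin after the start.
Mrpl32 (NRF1, chr13:14613042-14613071, minus strand): ggcggacttaaCGCATGCGctcagcccgcg
Mrpl32 (NRF1, chr13:14613105-14613134, minus strand): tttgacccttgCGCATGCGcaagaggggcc
Mrpl32 (YY1, chr13:14613258-14613287, minus strand): cgcgctctGCCATCTTtacccggaaagtcg
Mrpl49 (YY1, chr19:6057721-6057750, minus strand): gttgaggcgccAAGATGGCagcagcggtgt
Mrpl52 (ETS, chr14:54426899-54426928, plus strand): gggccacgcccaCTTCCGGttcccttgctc
Mrpl52 (ETS, chr14:54426850-54426879, plus strand): tcaagatgtcggCTTCCGGttttcccggca
Mrps21 (ETS, chr3:95871479-95871508, minus strand): ccgtagcttccgCTTCCGGtccgcagagac
Mrps12 (ETS, chr7:28741803-28741832, minus strand): taaggaggaaccCCGGAAGgggctggaggt
Mrps26 (ETS, chr2:130563731-130563760, plus strand): gctccgcggccaCTTCCGGgccgggcgcag
Mrps23 (ETS, chr11:88204391-88204420, plus strand): ctgccgcttccgCTTCCGGtaacagcccga
Mrps18b (NRF1, chr17:35916646-35916675, minus strand): aaacggcccgaCGCATGCGcactgggagca
Mrps11 (YY1, chr7:78783013-78783042, plus strand): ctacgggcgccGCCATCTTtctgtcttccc

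Mrpl32 holds a pair of NRF1 cores at 23 and 86 bases before its start, and Mrpl52 a pair of ETS cores at 47 bases before and 3 after. The Mrps11 window lies in a head-to-head arrangement with Mrpl46, one gene of each subunit. In all, 25 of the 78 members (32.1%) have a coding gene that starts on the opposite strand within 500 bases, compared with 15.6% of 9675 expressed coding genes in GENCODE M21. For Mrpl52, the large-subunit gene with the highest level, the 250 bases before the start (chr14:54426659-54426908, plus strand) read as follows, with the ETS core in capitals.
Mrpl52: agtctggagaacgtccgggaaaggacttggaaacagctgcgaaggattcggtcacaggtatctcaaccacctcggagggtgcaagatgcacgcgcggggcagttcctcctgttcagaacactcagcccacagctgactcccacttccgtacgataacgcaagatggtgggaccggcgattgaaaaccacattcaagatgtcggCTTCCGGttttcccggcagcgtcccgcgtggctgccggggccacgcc

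All 78 members passed the filter of a mean of 1 FPKM over the 6 libraries. Their mean levels spanned 45.1-fold, from 1.21 FPKM for Mrpl48 to 54.6 for Mrpl52, with a median of 10.3 FPKM against 8.04 for all tested genes. The large-subunit median was 11.2 FPKM and the small-subunit median 10.1. The ribosome holds most of its proteins in single copies, whereas their mRNA levels differed: 13 members lay below 5 FPKM, 43 between 5 and 20, and 22 at 20 or more. In the small subunit 3 genes, Mrps21, Mrps6 and Mrps23, held 30.9% of the summed FPKM. In the large subunit the top 3, Mrpl52, Mrpl24 and Mrpl12, held 17.6%.

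No member passed the threshold for an effect of ultrasound. The limma p was adjusted by the Benjamini-Hochberg method (BH) over all 11270 tested genes. Below 0.05 there were 0 of 78 members and 2 genes in all (0.0177%). When the library number of the titles entered as a block, there were 0 members and 13 genes (0.115%), of which 4 were higher (0.0355%) and 9 lower (0.0799%). The smallest BH-adjusted limma p of a member was 0.21, that of Mrps21, or 0.070 with the block. At an unadjusted limma p below 0.05, 8 members were lower (10.3%, against 9.16% of all tested genes) and 5 higher (6.4%, against 6.18%). With the block these were 13 lower and 7 higher, where 17.1% and 12.6% of all tested genes were. All 3 ultrasound libraries lay below all 3 LPS libraries for 10 members (12.8%, against 13.4%) and above them for 5 (6.4%, against 9.80%). These shares are near those of the tested genes, so the counts are not a result about the members.

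The fold changes were small. The log2 fold change lay within 0.2 of 0 for 64 members (82.1%, against 70.1% of the tested genes), and the standard errors of the members had a median of 0.11, as had those of all tested genes. The median was -0.06 over the large subunit, -0.03 over the small subunit and -0.02 over all tested genes. The fold change was below 0 for 31 of 49 large-subunit and 20 of 29 small-subunit members, 65.4% of the set, where 53.9% of the tested genes were below 0. Over 4 other scalings of the libraries the small-subunit count ran from 15 (quantile normalization) to 20. The counts below 0 shifted as single libraries were left out. Without LPS library 2 they were 26 of 49 and 10 of 29. Without ultrasound library 3 they were 23 of 49 and 12 of 29, and without ultrasound library 2 they were 35 of 49 and 22 of 29. With both libraries numbered 2 left out, the counts were 32 of 49 and 20 of 29, near those of the full set.

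**Figure D1:**
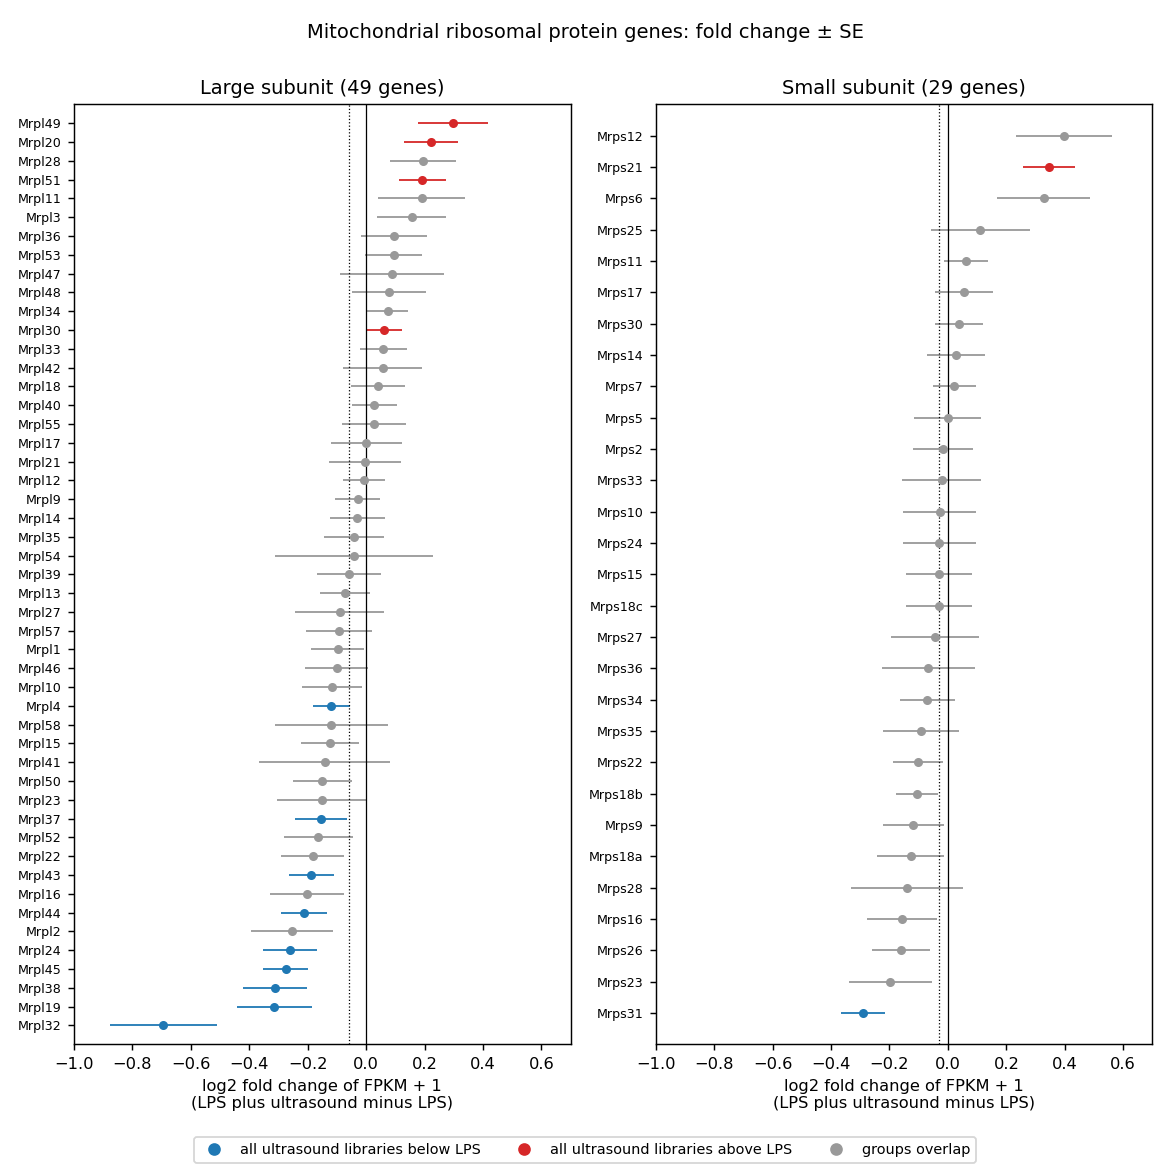
The x axis gives the log2 fold change of FPKM + 1 (LPS plus ultrasound minus LPS) of each member, with its standard error as a bar, for the 49 large-subunit and 29 small-subunit genes. Colours mark the 10 members whose ultrasound libraries all lie below the LPS libraries and the 5 that lie above; the dotted line is the subunit's median, -0.06 for the large and -0.03 for the small subunit.

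The members' levels differed with the library number in both groups. Library 2 was the highest of its group for 53 of 78 members with LPS and for 55 with ultrasound. Among the 11270 tested genes it was so for 4318 and 5111. In both groups it was the highest for 44 members (56.4%, against 27.6% of the tested genes). Relative to each gene's mean over the 6 libraries, the large-subunit median stood at 0.12 on the log2 scale in LPS library 2 and 0.07 in ultrasound library 2, and at -0.02 and -0.14 in the libraries numbered 3. The small-subunit medians were 0.17, 0.09, -0.09 and -0.12 in the same 4 libraries, while the median of all tested genes stayed between -0.03 and 0.02 in all 6. Mrpl41, a large-subunit gene near the polypeptide exit, is an example with 21.2, 26.1 and 17.9 FPKM with LPS and 16.3, 27.6 and 16.1 with ultrasound. The members that were lowest in library 2 of both groups were Mrpl49, Mrps30 and Mrps6, 3 of 78, against 24.1% of the tested genes. Mrpl41 was picked out after the values were seen. What the libraries numbered 2 share was not tested.

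**Figure D2:**
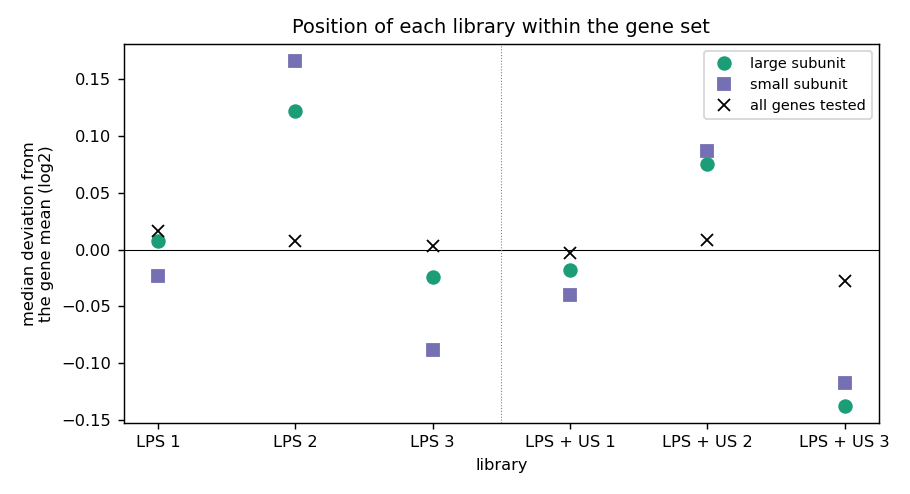
Each point is the median, over the members of a subunit or over all tested genes, of the deviation of log2(FPKM + 1) in that library from the gene's mean over the 6 libraries (y axis, log2; US, ultrasound). Both subunits are highest in the libraries numbered 2, at 0.12 and 0.17 with LPS and 0.07 and 0.09 with ultrasound, and all tested genes stay near 0.

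Among large-subunit proteins with a bacterial counterpart, Mrpl32 differed most. Its product is matured by the m-AAA protease of the inner membrane, a step that ribosome assembly requires. Mrpl32 had 3.67, 6.81 and 5.50 FPKM in LPS libraries 1 to 3 and 2.98, 2.90 and 2.60 in ultrasound libraries 1 to 3. All ultrasound values lay below the LPS values, which themselves spread widely. The log2 fold change was -0.69 ± 0.18, 0.531-fold in mean FPKM (limma, BH adjusted p = 0.21, or 0.090 in the blocked fit). For Mrpl32 it was -0.53 without LPS library 2, and -0.39 or -0.85 with an offset of 5 or 0.1 FPKM instead of 1. Psma2, a proteasome gene that starts on the opposite strand beside it, had a log2 fold change of 0.11 ± 0.08. Mrpl24, another bacterial-type protein, had 45.9, 56.2 and 47.8 FPKM with LPS and 40.8, 43.8 and 39.6 with ultrasound. The groups were separate, with a log2 fold change of -0.26 ± 0.09 (limma, BH adjusted p = 0.27). In its exons 26.3% of the bases overlap a gene on the opposite strand, whose reads cannot be told apart where strand was not counted. Mrpl12, whose product forms the flexible stalk that binds translation factors, had 35.1, 36.3 and 37.0 FPKM with LPS and 38.3, 35.4 and 34.2 with ultrasound. Its values overlapped fully, at -0.0070 ± 0.071. Over the 30 large-subunit members with a bacterial counterpart the median log2 fold change was -0.03, and 18 lay below 0.

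Mitochondria-specific large-subunit proteins had a median of -0.10, with 13 of 19 below 0. Mrpl45, which sits near the polypeptide exit and ties the ribosome to the inner membrane, had 20.5, 22.8 and 20.0 FPKM with LPS and 17.5, 17.1 and 17.0 with ultrasound. The ultrasound libraries were close to each other and below all LPS libraries (log2 fold change -0.28 ± 0.08, limma, BH adjusted p = 0.22). Mrpl38, a protein of the central protuberance, had 17.6, 18.0 and 16.0 FPKM with LPS and 14.2, 15.3 and 11.7 with ultrasound. These groups too were separate, at -0.31 ± 0.11. Mrpl44, which carries a ribonuclease III-like fold, had 24.7, 27.1 and 24.1 FPKM and 21.8, 22.8 and 20.5 FPKM (-0.21 ± 0.08). Mrpl49 went the other way, with 14.1, 11.3 and 15.0 FPKM with LPS and 18.1, 15.2 and 16.7 with ultrasound (0.30 ± 0.12, or 0.18 without LPS library 2). For Mrpl38, Mrpl44 and Mrpl49 the BH-adjusted limma p was 0.26, 0.28 and 0.31. Mrpl52, the most abundant, had 50.3, 68.4 and 55.0 FPKM with LPS and 49.4, 55.1 and 49.2 with ultrasound. Its groups overlapped, and the log2 fold change of -0.16 ± 0.12 became -0.039 without LPS library 2. Mrpl48, the least abundant, stayed between 0.950 and 1.48 FPKM in all 6 libraries.

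**Figure D3:**
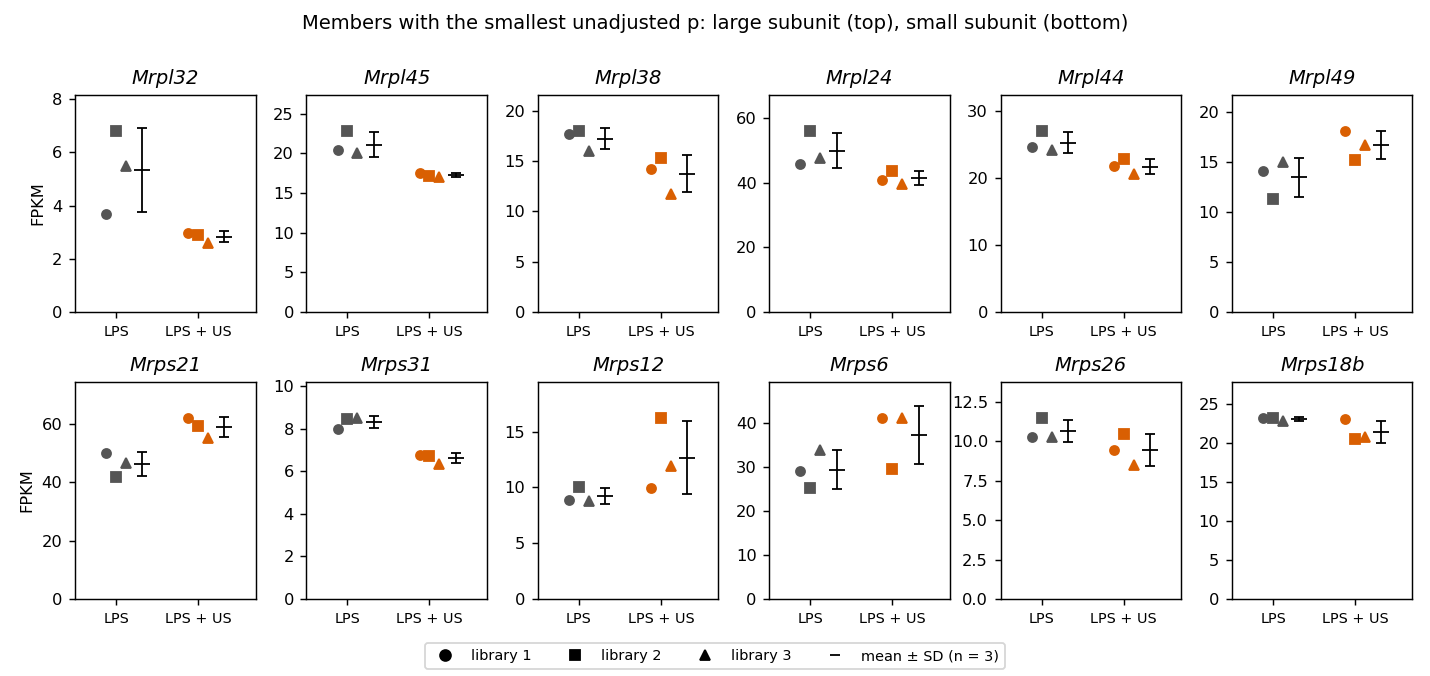
FPKM in each library (y axis from 0) for the 6 members of each subunit with the smallest unadjusted limma p, by group (US, ultrasound) and library number, with the mean ± SD of n = 3 libraries beside the points. Mrpl32, Mrpl45, Mrpl38, Mrpl24, Mrpl44 and Mrps31 have all ultrasound values below all LPS values, and Mrpl49 and Mrps21 above them; none passed the adjusted threshold.

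In the small subunit, 3 of the 4 members with the smallest p had higher means with ultrasound, Mrps21, Mrps12 and Mrps6, and all 3 have bacterial counterparts. Mrps21, the most abundant small-subunit gene, had 50.0, 41.8 and 46.5 FPKM with LPS and 62.0, 59.3 and 55.1 with ultrasound. Each ultrasound library lay above each LPS library, by 1.27-fold in the mean (log2 fold change 0.35 ± 0.09, limma, BH adjusted p = 0.21, or 0.070 in the blocked fit). Mrps6, next in level, had 29.0, 25.1 and 33.8 FPKM with LPS and 41.1, 29.5 and 40.9 with ultrasound. The groups overlapped, although each same-numbered pair was higher with ultrasound (0.33 ± 0.16, limma, BH adjusted p = 0.37, or 0.075 in the blocked fit). Of the exon bases of Mrps6, 30.3% lie in other genes of the same strand, so its value also depends on how reads were assigned. Mrps12, a protein of the decoding centre, had 8.83, 10.0 and 8.81 FPKM with LPS and 9.93, 16.2 and 11.9 with ultrasound. Its log2 fold change of 0.40 ± 0.16 (limma, BH adjusted p = 0.32) became 0.22 without ultrasound library 2. Sars2, the mitochondrial seryl-tRNA synthetase gene that starts beside Mrps12 on the opposite strand, had a log2 fold change of -0.09 ± 0.12.

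Small-subunit members by symbol without a bacterial counterpart lay mostly below 0, with a median of -0.09. They did so in 11 of 13 cases (84.6%, against 53.9% of the tested genes). LPS library 2 was the highest of the 6 libraries for 9 of the 13 (69.2%, against 27.6% of the tested genes). Without that library, Mrps35 and Mrps36 turned to 0.0098 and 0.073. The count below 0 over the whole small subunit was then 10 of 29, against 20 of 29 with all libraries. The 13 include Mrps30, Mrps18a and Mrps36, whose products are not small-subunit proteins, as described further on. Mrps31 had 8.00, 8.44 and 8.51 FPKM with LPS and 6.78, 6.71 and 6.36 with ultrasound. It was the only small-subunit member whose ultrasound libraries were all lower (3.45% of the subunit, against 13.4% of the tested genes). Its spread within groups was small (-0.29 ± 0.08, limma, BH adjusted p = 0.21). Mrps26 had 10.3, 11.5 and 10.2 FPKM and 9.43, 10.5 and 8.47 FPKM, which overlapped (-0.16 ± 0.10, or -0.092 without ultrasound library 3). Mrps18b, one of 3 related Mrps18 genes, had 23.2, 23.2 and 22.8 FPKM with LPS and 23.0, 20.5 and 20.7 with ultrasound. Of these 3 genes only Mrps18c was counted as having a bacterial counterpart, so the split into 13 and 16 members rests on that assignment. Mrps23 had 27.7, 39.2 and 26.8 FPKM with LPS and 26.2, 26.7 and 27.2 with ultrasound, and its log2 fold change of -0.20 ± 0.14 became -0.027 without LPS library 2. Mrps35, the lowest small-subunit member, lay between 1.27 and 2.06 FPKM. Among the 16 small-subunit members with a bacterial counterpart 9 were below 0, at a median of -0.0088.

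The subunits were compared by their sums. The large-to-small ratio of summed FPKM was 2.16, 2.15 and 2.20 in LPS libraries 1 to 3 and 2.01, 2.05 and 1.98 in ultrasound libraries 1 to 3. The groups did not overlap. The log2 ratio went from 1.12 ± 0.0168 (SD, n = 3) with LPS to 1.01 ± 0.0259 with ultrasound, a difference of -0.11 that each left-out library kept between -0.119 and -0.0932. No test was made of it, since the members were chosen with earlier results known. In the means, the large sum was lower with ultrasound and the small sum higher. Mrps21, Mrps6 and Mrps12 together summed to 87.9, 76.9 and 89.1 FPKM with LPS and 113, 105 and 108 with ultrasound. Without Mrps21 the difference in the log2 ratio was -0.056, and without all 3 it was 0.0054, with overlapping groups. These genes were left out because their values were seen to be higher, so the choice itself makes the difference smaller, and it does not show where the difference comes from. From mean log2 levels, which weight genes equally, the difference was -0.043, also with overlapping groups. The remaining 26 small-subunit members summed to 282 ± 28.0 FPKM with LPS and 268 ± 19.4 with ultrasound. The large subunit summed to 779, 838 and 767 FPKM with LPS and to 761, 807 and 708 with ultrasound (795 ± 38.1 and 759 ± 49.6). The groups overlapped for both sums, while within same-numbered libraries each sum was lower with ultrasound in 3 of 3 pairs.

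**Figure D4:**
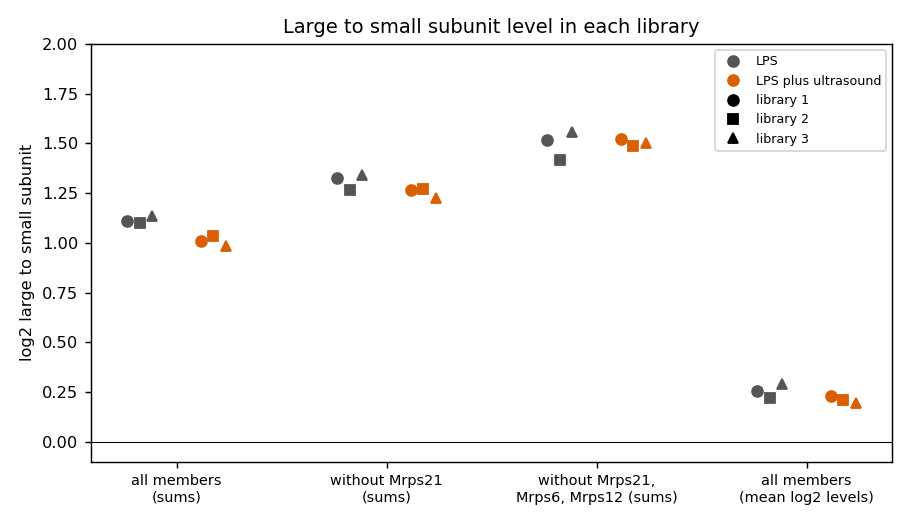
The y axis gives the log2 of the large-to-small ratio in each library, for sums over all members, for sums without Mrps21, for sums without Mrps21, Mrps6 and Mrps12, and as the difference of mean log2(FPKM + 1) of the subunits. The groups are apart only in the first set of points (1.10 to 1.13 with LPS, 0.985 to 1.04 with ultrasound).

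Symbol and structural place differ for some members. Mrps30 and Mrps18a carry small-subunit names, but their proteins lie in the large subunit, and Mrps36 encodes a component of the 2-oxoglutarate dehydrogenase complex. Mrps30 was among the steadiest members, with 3.57, 3.39 and 3.55 FPKM with LPS and 3.77, 3.55 and 3.57 with ultrasound. Mrps18a had 10.5, 12.1 and 9.70 FPKM and 10.2, 10.7 and 8.51 FPKM (-0.13 ± 0.12, or -0.048 without LPS library 2 and -0.039 without ultrasound library 3). Mrps36 had 5.56, 7.84 and 5.63 FPKM and 5.67, 7.23 and 5.09 FPKM (-0.07 ± 0.16), with the replicate number 2 highest in both groups. Assigning these genes by structure and adding the ribosomal proteins with other symbols changed the difference in the log2 ratio from -0.11 to -0.10. Of those 5, Aurkaip1 had 17.7, 16.9 and 17.6 FPKM with LPS and 19.4, 23.4 and 18.2 with ultrasound (0.21 ± 0.10), and Ptcd3, which lies near the mRNA entrance, had 4.87, 5.31 and 4.60 and 4.01, 5.06 and 3.93 FPKM (-0.16 ± 0.11).

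Among other genes of mitochondrial translation, 0 passed the BH-adjusted limma threshold, with or without the block. Of 15 genes listed for translation factors and related functions, with Oxa1l, Lrpprc and Slirp among them, 10 lay below 0 (median -0.04). In 6 of the 15 (40.0%, against 13.4% of the tested genes), including Oxa1l, all ultrasound libraries lay below all LPS libraries. Tufm, the elongation factor that brings aminoacyl-tRNA to the ribosome, had 26.6, 28.5 and 27.7 FPKM with LPS and 22.0, 25.5 and 23.1 with ultrasound (-0.23 ± 0.08, limma, BH adjusted p = 0.26). Tsfm, which recharges Tufm with nucleotide, had 11.6, 11.8 and 10.3 FPKM and 9.93, 9.54 and 9.09 FPKM (-0.22 ± 0.08). In this pair too the ultrasound libraries all lay below the LPS libraries. Of 24 tested assembly and rRNA modification genes 16 lay below 0 (median -0.07), with Mettl17, an assembly factor of the small subunit, at -0.25 ± 0.10 and Mrm2, a methyltransferase of the large rRNA, at 0.32 ± 0.12. Of 14 tested mitochondrial aminoacyl-tRNA synthetase genes 8 lay below 0 (median -0.03). Tars2, the mitochondrial threonyl-tRNA synthetase, had 5.10, 6.46 and 4.29 FPKM with LPS and 3.84, 4.96 and 3.43 with ultrasound (-0.31 ± 0.16), and the groups overlapped.

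The RNAs that these proteins bind are encoded in the mitochondrial genome. The large rRNA, mt-Rnr2, had 112, 78.6 and 119 FPKM with LPS and 134, 143 and 140 with ultrasound (0.45 ± 0.15, limma, BH adjusted p = 0.26). The small rRNA, mt-Rnr1, had 207, 178 and 315 FPKM and 203, 148 and 220 FPKM (-0.27 ± 0.23). The libraries were enriched for poly(A) RNA, so these levels do not measure the amount of rRNA. The 13 mitochondrial mRNAs, the ribosome's templates, had a median log2 fold change of 0.82, with 1 of 13 below 0 (7.7%, against 53.9% of the tested genes). In 8 of them (61.5%, against 9.80%) all ultrasound libraries lay above all LPS libraries, while 0 passed the threshold. LPS library 2, which stood apart on principal component 1, was the lowest of all libraries for 11 of the 13 mRNAs, and for 2838 of the 11270 tested genes. Their smallest BH-adjusted limma p was 0.061. Their summed FPKM was 21120 ± 3620 with LPS and 25910 ± 825 with ultrasound, next to 1161 ± 59.5 and 1135 ± 67.5 for the 78 members. LPS library 2 held the lowest sum of the mRNAs, 17661 FPKM, and the highest sum of the members, 1229 FPKM; whether these are linked was not tested.

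Some members can share reads with near copies. The pseudogene Mrpl23-ps1 was listed at 6.74 to 10.8 FPKM, above its parent Mrpl23 at 2.26 to 3.75. The pseudogene Mrpl48-ps reached 2.33 FPKM in ultrasound library 2, above Mrpl48 itself. The pseudogene Mrps36-ps1 was listed at 1.02 to 3.04 FPKM, below its parent Mrps36 at 5.09 to 7.84. The levels of Mrpl23, Mrpl48 and Mrps36 are therefore uncertain. Exons of 18 members overlap another gene by more than 10% of their bases. Among the other 60 members 39 lay below 0, at a median of -0.05.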

How the data were processed

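Poly(A) RNA was sequenced as paired ends, per the labels' protocols. The deposited table holds FPKM computed by the authors, 1 column per library. How reads were aligned and quantified, and against which mouse build, is not stated in the labels. A rat build appears in the submitters' processing notes and rat muscle in the extraction text, while 55335 of 55335 identifiers are mouse ones. Columns were matched to titles by initial and number. Counts are not in the table and depth is unknown; if the smallest step in the values of single-transcript genes is 1 fragment, libraries held 25.3 to 29.3 M fragments.

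Symbols came from GENCODE M21 (55154 identifiers matched), used for names, biotypes and overlaps, and promoters from RefSeq (GRCm38.p6). The 11270 genes averaging 1 FPKM or more entered the test (44065 were removed). On log2(FPKM + 1), limma 3.58.1 (R 4.3.3) was run two-sided with trended, robust variance moderation and Benjamini-Hochberg adjustment over all tested genes, at a threshold of 0.05. The fit was tested on simulated data. Deviations from the group means correlated at 0.177, 0.442 and 0.409 across genes between same-numbered libraries, and at -0.398 to 0.057 otherwise. These correlations come from the same data and cannot establish a pairing. Libraries of the same number in the titles were treated as pairs only in the blocked fit and in counts over same-numbered pairs. The labels state no pairing, so results are given without the block first.

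Named members are the 6 with the smallest p and the 3 highest of each subunit, the lowest of each, and 3 whose symbol and structural place differ, plus 2 genes per companion list; 1 of these is not reported here, and promoter windows are printed for only some of the matches. Other genes named were chosen after their values were seen. The members and lists were chosen with earlier results of these data known. Other settings tried were the offset, the filter, 4 scalings, the moderation, array weights, the block, left-out libraries and the subunit assignment.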

Additional observations from a re-analysis of the deposited data

How the results depend on the processing

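The number of members past the threshold (limma with Benjamini-Hochberg adjustment) was 0 as reported and under each alternative that refitted the genes. With array weights the smallest BH-adjusted limma p of a member came close to the threshold, at 0.0539 for Mrps21. Pairing the libraries by the replicate block raised the number of genes called from 2 to 13. It was 223 with array weights, 5 with each library scaled to the same sum (with or without the mitochondrially encoded genes), 6 without both libraries numbered 2 and 1 with a filter of 5 FPKM, and 2 to 8 as each library was left out, 8 without LPS library 2. The difference of the subunit medians, large minus small, was -0.029, 0.0026 with array weights, and -0.0519 to 0.0159 with each library left out. The large-subunit median ran from -0.125 to 0.0075 and the small-subunit median from -0.113 to 0.0441 with a library left out. The difference in the log2 large-to-small ratio, -0.11, was -0.056 without Mrps21, 0.0054 without Mrps21, Mrps6 and Mrps12, and -0.043 from mean log2 levels, the last 3 alternatives being added after the data were seen. Among the 20 named members, 3 with values near 0 turned sign. Mrpl12 moved to 0.012 with median-ratio scaling, 0.070 with array weights, 0.0072 without both libraries numbered 2, and from -0.0525 to 0.0278 as single libraries were left out (0.010 without LPS library 3, 0.0038 without ultrasound library 2). Mrps36 ran from -0.190 to 0.073 (without LPS library 2; 0.027 without ultrasound library 3) and Mrps35 from -0.159 to 0.0098 (without LPS library 2). The share of higher genes among those at an unadjusted limma p below 0.05 was 40.3%, and 30.2% with libraries scaled to the same sum. The depth behind these FPKM is unknown, and 3 libraries per group limit the precision.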
